A study of Mus musculus with 2 samples.

Results

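C2cd4b and C2cd4a, 2 of the 31053 genes counted, were examined in single cells of mouse pancreatic islets from a wild-type (WT) and a high-fat diet (HFD) library. The pair was selected on measured values: in earlier work on these counts C2cd4b was among the genes with the lowest HFD level relative to WT in β-like cells. The HFD to WT ratios of both genes in β-like cells are therefore descriptions that carry no test. The islets came from male C57/B6 mice aged 16 weeks. The labels name no diet for the WT mice, and the study's methods give standard chow for mice off the high-fat diet. The HFD mice had received a diet with 60% of its calories as fat since the age of 6 weeks, that is for 10 weeks. Per the study's methods islets of 4 mice were pooled per group, so each group is 1 library, the mice cannot be told apart, and diet and library cannot be told apart either. No p-value is possible in this design, and all intervals below are exact 95% intervals that cover counting error only.

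C2cd4a and C2cd4b encode small proteins named for a C2 domain, a fold that in many proteins binds calcium and membranes. They were described early on as nuclear factors induced by cytokines in endothelial cells. The human counterparts lie with VPS13C at a locus associated with type 2 diabetes and insulin secretion, which has made the islet β cell the tissue of interest for both genes.

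In the mouse both genes lie on chromosome 9 and have 1 annotated transcript of 2 exons each. C2cd4b (ENSMUSG00000091956) spans chr9:67759437-67760930 on the plus strand of GRCm38, the assembly that mm10 names. C2cd4a (ENSMUSG00000047990) spans chr9:67830489-67832330 on the minus strand, 69558 bases away, and Vps13c (ENSMUSG00000035284), a lipid transfer protein gene, begins 8065 bases beyond it. The 3' chemistry of the libraries counts tags at transcript ends, which lie in exon 2 of both genes (chr9:67759684-67760930 for C2cd4b, chr9:67830489-67831802 for C2cd4a). The genes are paralogs, and reads that could not be assigned to either copy would be missing from both counts.

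The promoters are shown because C2cd4b varied from cell to cell with signal-responsive genes, whose promoters often hold sites for AP-1, CREB and serum response factor. Each run below gives 250 bases ahead of the annotated start and 50 bases from it, taken from RefSeq (GRCm38.p6) at chr9:67759187-67759486 for C2cd4b and at chr9:67832281-67832580, minus strand, for C2cd4a. Capitals mark matches to the letters searched.
C2cd4b: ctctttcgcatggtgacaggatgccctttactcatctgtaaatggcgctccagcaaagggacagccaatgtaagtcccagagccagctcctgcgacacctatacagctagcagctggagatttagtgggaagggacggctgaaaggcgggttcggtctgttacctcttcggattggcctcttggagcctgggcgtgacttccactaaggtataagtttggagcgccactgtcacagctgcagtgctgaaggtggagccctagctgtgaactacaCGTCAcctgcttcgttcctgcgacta
C2cd4a: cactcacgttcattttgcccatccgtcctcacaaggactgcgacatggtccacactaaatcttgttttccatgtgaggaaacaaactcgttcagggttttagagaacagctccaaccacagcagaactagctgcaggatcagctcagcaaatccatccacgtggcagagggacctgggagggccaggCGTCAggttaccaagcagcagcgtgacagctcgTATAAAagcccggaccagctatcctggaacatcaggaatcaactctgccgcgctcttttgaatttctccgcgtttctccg
Neither window held the AP-1 letters TGANTCA, the full cAMP response element TGACGTCA, the EGR letters GCGNGGGCG, the FoxO letters TGTTTAC, an NF-kB motif or a CArG box, each searched on both strands. Those letters occur in 7.81%, 1.79%, 5.55%, 3.65%, 1.47% and 1.63% of all 32851 promoters of this length, respectively. Each window held 1 copy of the cAMP response core TGACG, read as CGTCA on the printed strand, a run of letters found in 20.8% of promoters and contained in the full element. It began 24 bases after the start in C2cd4b and 63 bases before it in C2cd4a. The C2cd4a window also held TATAAA, searched on the gene's strand alone, 30 bases before the start, as 8.32% of promoters do. The 2 windows were identical at 24.3% of positions when aligned at the start without gaps. Of the 11 genes highest with C2cd4b in either library, 8 had a promoter in the RefSeq table. The same search found AP-1 and the CArG box in 0 of them, the full cAMP response element in 2 and its core in 5. It found the EGR letters in 2, the FoxO letters in 1, the NF-kB motif in 1 and TATAAA in 3. These matches are letters in a window and do not show that a factor binds there. Sites outside the window were not searched, so a motif not found in it may lie elsewhere.

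The WT library held 3895 barcodes with 73843674 UMIs (unique molecular identifiers, each standing for 1 captured transcript), and the HFD library 8951 barcodes with 94375138 UMIs. After filters 2493 WT and 6673 HFD cells remained, and 3 of their barcodes occurred in both libraries. Cells were clustered without C2cd4a, C2cd4b or the main hormone genes and named from marker genes, which gave 1619 WT and 4753 HFD β-like cells. In β-like cells Ins1 and Ins2 together reached 614783 CPM (WT) and 575890 CPM (HFD), where CPM is the UMIs of a gene over the UMIs of the class, scaled to a common total. Clusters with 446 WT and 1181 HFD cells stayed unnamed, of which 375 and 1103 lay nearest the β markers but carried leading genes of other classes or few UMIs. Different clusters held most of the class in each library: 72.2% of WT β-like cells lay in clusters 4 and 0, with 18.2% of the HFD ones, and 58.5% of HFD β-like cells lay in clusters 1 and 3, with 1.67% of the WT ones. β-like cells were deeper in WT, with a median of 29001 UMIs per cell against 11972 in HFD. The δ-like class includes 24 cells of a cluster led by the ghrelin gene Ghrl.

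C2cd4b was an endocrine gene in these islets. Its level was 414 CPM (409 to 420; 21629 UMIs) in WT β-like cells and 137 (134 to 140; 8848 UMIs) in HFD β-like cells. In α-like cells, the glucagon cells, it was 373 (328 to 423) in WT and 160 (136 to 188) in HFD. The order of the endocrine classes in WT was therefore β, α, δ and γ, with β and α not separated by counting error: the β to α ratio was 1.11 (0.98 to 1.26) in WT and 0.85 (0.73 to 1.01) in HFD. The somatostatin cells (δ-like) held 210 CPM (180 to 244) in WT and 95.7 (70.1 to 128) in HFD. The pancreatic polypeptide cells (γ-like), only 17 and 38 in number, held 119 (83.5 to 164) and 76.0 (44.3 to 122). In HFD α stood above β in value, and the δ and γ intervals overlapped. WT β-like cells exceeded δ-like cells 1.97-fold (1.70 to 2.30) and γ-like cells 3.49-fold (2.53 to 4.96).

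Outside the endocrine classes C2cd4b was low or not detected. WT fibroblast-like cells had 0 of 310242 UMIs, which allows up to 11.9 CPM and puts WT β-like cells at least 34.8-fold higher by the exact interval. WT endothelial-like cells, the cell type in which the family was described, had 2 UMIs (3.28 CPM, 0.398 to 11.9), and macrophage-like cells had 1 UMI in each library. Ductal-like cells lay between, at 74.3 CPM (58.2 to 93.4) in 57 WT cells and at 5 UMIs (8.12 to 58.4 CPM) in 32 HFD cells. Insulin UMIs serve as a measure of β-cell RNA found in other cells. In WT α-like cells insulin stood at 0.706% of its β-like level and C2cd4b at 90.1% of its own, and in HFD α-like cells at 2.40% and 117%, so insulin and C2cd4b were not in the ratio they had in β-like cells. In WT γ-like cells the corresponding values were 0.635% and 28.6%, and in WT ductal-like cells 2.84% and 17.9%. In WT δ-like cells insulin reached 30.8% of the β-like level and C2cd4b 50.7%, and the part of β-cell RNA in the δ-like value was not tested.

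C2cd4a was far scarcer, and nearly all of its UMIs in named classes came from β-like cells, the class with most cells. Its level there was 18.4 CPM (17.2 to 19.6; 959 UMIs) in WT and 11.8 CPM (10.99 to 12.7; 762 UMIs) in HFD. WT α-like cells had 1 UMI and HFD α-like cells had 7 UMIs (7.29 CPM, 2.93 to 15.03). δ-like cells had 4 UMIs in WT and 0 in HFD, where up to 7.68 CPM is allowed. The γ-like, fibroblast-like, ductal-like and macrophage-like cells had none in either library. The WT β to δ ratio was 3.78 (1.47 to 13.9), while the HFD β to α ratio of 1.62 (0.78 to 4.04) did not separate those classes. In HFD γ-like, ductal-like, macrophage-like and fibroblast-like cells 3 counts would already exceed the β-like level, so their zeros do not place C2cd4a below it. C2cd4b thus outnumbered C2cd4a 22.6 to 1 (21.1 to 24.1) among WT β-like UMIs and 11.6 to 1 (10.8 to 12.5) among HFD ones. In α-like cells the same ratio was 22.0 (10.4 to 55.6) in HFD, while the single WT UMI of C2cd4a left it at 248 with an interval from 44.1 to 9834. Per kilobase the genes cannot be set against each other here, since the 3' chemistry counts transcript ends.

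**Figure D1:**
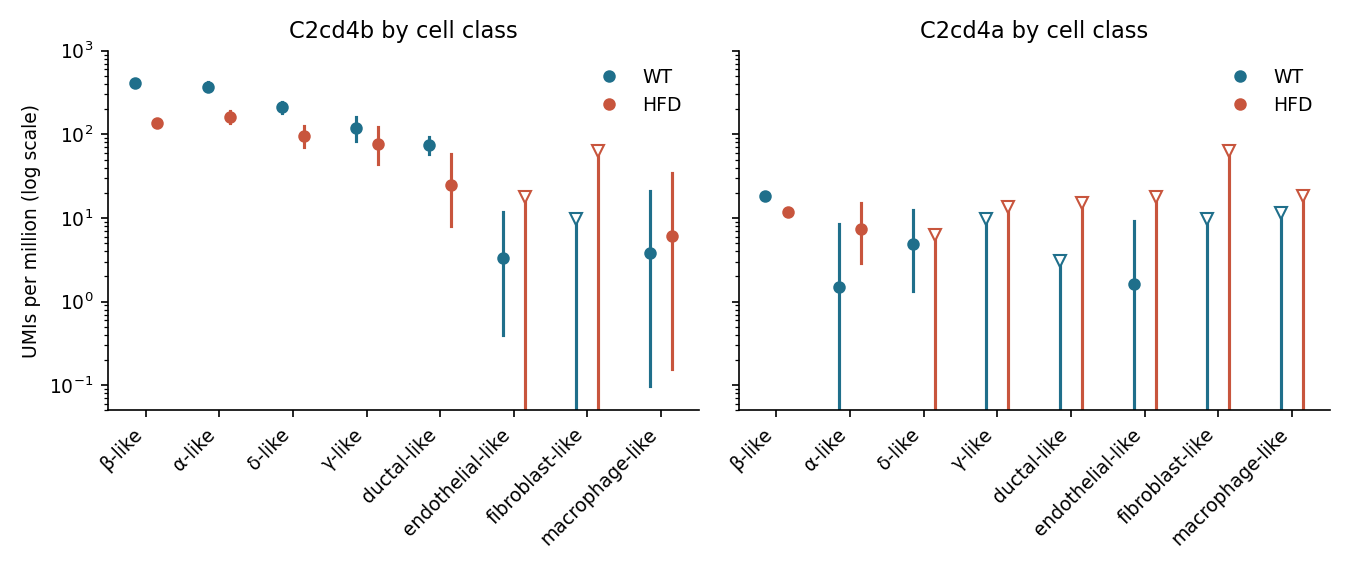
Level of C2cd4b (left) and C2cd4a (right) in CPM on a log axis, by cell class, in the WT and the HFD library (1 library each). Points are class sums with exact 95% counting intervals, and open triangles mark classes with 0 UMIs at the level that 3 counts would give; C2cd4b runs from 414 in WT β-like cells to 3.28 in WT endothelial-like cells.

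The share of cells with a C2cd4b UMI was compared after every cell had been thinned to 2000 UMIs. It was 48.4% (45.9 to 50.9) of 1606 WT β-like cells and 21.4% (20.3 to 22.6) of 4746 HFD β-like cells, against 90.7% and 63.1% before thinning. In α-like cells it was 37.0% (24.3 to 51.3) in WT and 26.6% (20.4 to 33.5) in HFD. As background, 2 of 99 WT endothelial-like cells held a UMI (2.02%, 0.246 to 7.11, median depth 4256 UMIs). Of the HFD ones, 0 of 37 did (up to 9.49%, median depth 1940 UMIs). For C2cd4a the thinned shares were 3.36% (2.54 to 4.36) in WT and 2.28% (1.87 to 2.74) in HFD β-like cells, against 1 of 99 WT endothelial-like cells (1.01%, 0.026 to 5.50). The C2cd4a intervals overlap that of the background share, and its class order rests on the CPM.

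In β-like cells C2cd4b was 3.02-fold lower in the HFD library (ratio 0.331, 0.323 to 0.339; log2 -1.59). Of the 2 members it alone lay past a 2-fold difference. Among the 11084 genes with at least 100 UMIs, 0.902% were at least 2-fold lower in HFD and 1.04% at least 2-fold higher, and C2cd4b ranked 23 from the lowest. C2cd4a had a ratio of 0.643 (0.584 to 0.708; log2 -0.64) and ranked 343. The median log2 ratio over all these genes was -0.0057. Since the pair was selected on this contrast, these ranks describe the selection and nothing is read from them. Without the 4 clusters in which 1 library held over 95% of cells, the ratios were 0.511 for C2cd4b and 0.875 for C2cd4a. That library was HFD in all 4 (clusters 1, 3, 36 and 37). They held 1392, 1390, 242 and 220 HFD cells against 11, 16, 1 and 3 WT cells, so nearly all cells left out were HFD cells.

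The same direction was seen for C2cd4b in the other endocrine classes. The selection was made on β-like cells, but these classes come from the same libraries and give no separate support. The HFD to WT ratio was 0.430 (0.349 to 0.528) in α-like cells, 0.456 (0.322 to 0.634) in δ-like cells and 0.640 (0.338 to 1.17) in γ-like cells. The γ-like interval includes 1. Insulin in δ-like cells was at 30.8% of the β-like level in WT and 15.6% in HFD, and its part in the δ-like ratio was not tested. Ductal-like cells gave 0.337 (0.106 to 0.823) from 5 HFD UMIs against 73 in WT. Most of them lay in different clusters by library: cluster 16 held 46 WT and 2 HFD cells, and cluster 44 held 11 and 30. The part of this in the ductal-like ratio was not tested. Among α-like cells with over 5000 UMIs, 75 in HFD and 54 in WT, the ratio was 0.413 (0.318 to 0.532), as low as with the shallower HFD cells included. C2cd4a went the other way in α-like cells, at 7 against 1 UMIs, but the interval of its ratio ran from 0.623 to 218 and gives no direction. Whether the ratio differs between classes was not tested.

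Because HFD cells were shallower, β-like cells were compared within bands of UMIs per cell, which narrows but does not remove the difference in depth. Up to 5000 UMIs the median depth was 2930 (WT) and 3863 (HFD), and above 30000 UMIs it was 43666 and 32945. C2cd4b was lower in HFD in all 5 bands of UMIs per cell, with every interval below 1. Up to 5000 UMIs it stood at 500 CPM (418 to 594) in 87 WT cells and 168 CPM (134 to 208) in 131 HFD cells, a ratio of 0.336 (0.252 to 0.446). From 5000 to 10000 UMIs the levels were 389 and 178 CPM and the ratio 0.458 (0.386 to 0.547). From 10000 to 15000 UMIs they were 463 and 133 CPM, with a ratio of 0.288 (0.259 to 0.320). No WT band lay below 389 CPM and no HFD band above 178 CPM. From 15000 to 30000 UMIs, where the libraries held 640 and 1483 cells, the levels were 415 and 128 CPM and the ratio 0.307 (0.295 to 0.320). Above 30000 UMIs they were 412 and 94.4 CPM, with the lowest ratio of the 5, 0.229 (0.205 to 0.255), from 775 WT and 108 HFD cells.

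C2cd4a did not keep a common direction over these bands. Its ratio was 0.394 (0.113 to 1.30) up to 5000 UMIs and 0.591 (0.293 to 1.39) from 5000 to 10000. It was 1.10 (0.589 to 2.33) from 10000 to 15000 and 0.899 (0.750 to 1.08) from 15000 to 30000 UMIs. All 4 of these intervals include 1. Only above 30000 UMIs did the interval exclude it, with 20.6 CPM in WT and 6.35 CPM in HFD (0.309, 0.194 to 0.467). In that band the WT cells were deeper, with a median of 43666 UMIs against 32945 in HFD. Cells above 30000 UMIs held 747 of the 959 WT UMIs of C2cd4a but only 23 of its 762 HFD UMIs.

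**Figure D2:**
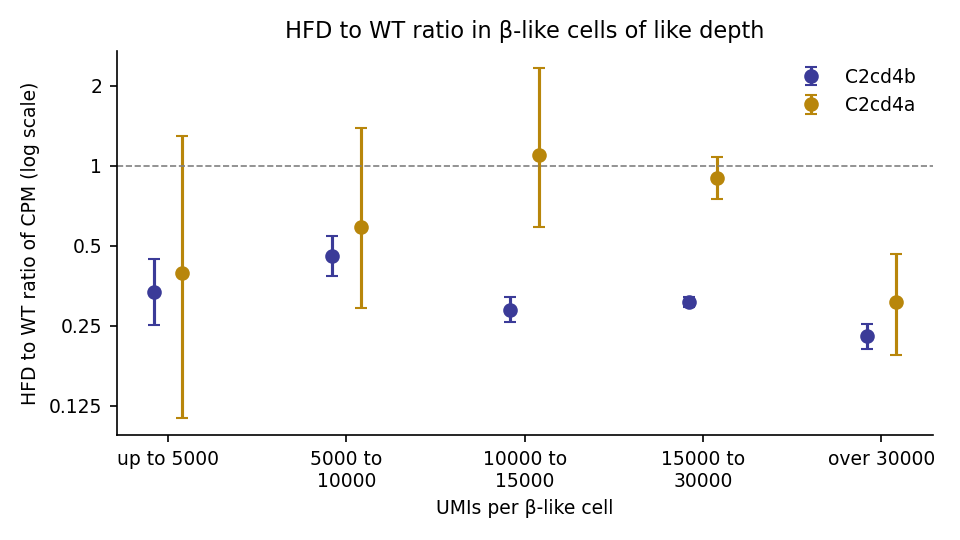
HFD to WT ratio of CPM (log axis) of C2cd4b and C2cd4a in β-like cells grouped by UMIs per cell, with exact 95% counting intervals; the dashed line marks equal levels. C2cd4b lies between 0.229 and 0.458 in all 5 bands, while the C2cd4a interval excludes 1 only above 30000 UMIs.

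Cells differed widely in C2cd4b within each library. With every cell thinned to 10000 UMIs, which left 1483 WT and 3106 HFD β-like cells, the median WT cell held 3 C2cd4b UMIs, with 0 at the 10th and 9 at the 90th percentile and 23 at most. The median HFD cell held 1 UMI, with 0 and 3 at those percentiles and 25 at most. The HFD library was thus shifted down in bulk, yet its highest cells reached WT levels. No UMI was found in 15.5% of WT and 42.7% of HFD cells, and 5 or more UMIs in 37.8% and 5.18%. The variance was 3.35 times the mean in WT and 2.73 times in HFD, where pure counting error would give 1. For C2cd4a, by contrast, 87.3% of WT and 89.9% of HFD cells held no UMI, and the variance was 1.48 and 1.36 times the mean.

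**Figure D3:**
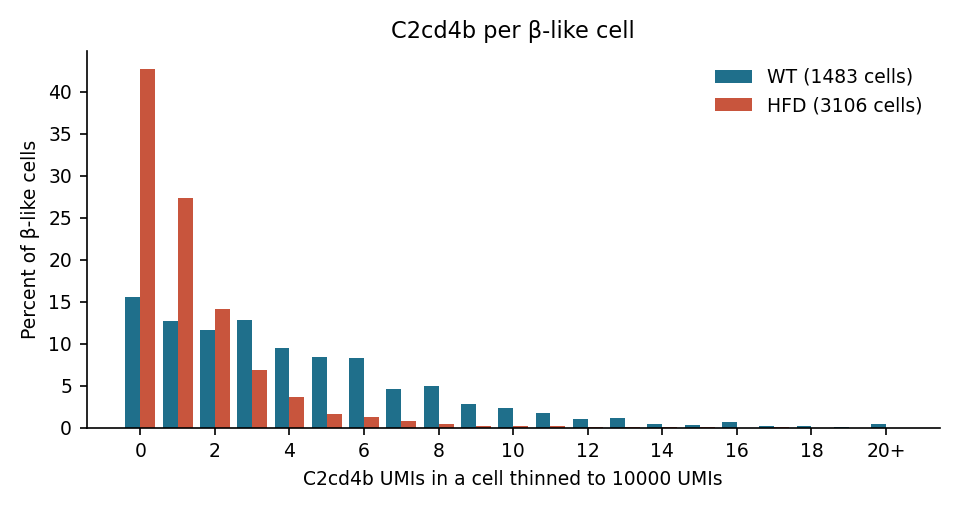
Percent of β-like cells by number of C2cd4b UMIs after thinning each cell to 10000 UMIs, for 1483 WT and 3106 HFD cells; the last bar pools 20 or more. No UMI was found in 15.5% of WT and 42.7% of HFD cells, and 5 or more UMIs in 37.8% and 5.18%.

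C2cd4a was found more often in cells that also held C2cd4b. It was detected in 13.7% (11.9 to 15.8) of WT β-like cells that held C2cd4b and in 6.96% (4.03 to 11.1) of those that did not. In HFD these shares were 12.0% (10.5 to 13.6) and 7.54% (6.17 to 9.09). The mean C2cd4a count per 10000 UMIs went in HFD from 0.082 (0.067 to 0.099) in cells with 0 C2cd4b UMIs to 0.298 (0.220 to 0.395) in cells with 5 or more. The corresponding WT means were 0.083 (0.050 to 0.129) and 0.207 (0.171 to 0.248). The Spearman correlation of the pair over cells was 0.09 in WT and 0.10 in HFD. These are low values in sparse counts, though C2cd4b ranked 9 in WT and 2 in HFD among the genes correlated with C2cd4a.

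C2cd4b also differed between β-like clusters, which were built without it. Genes that varied with it across cells, such as Rasd1 and Fos, were not left out of the clustering. Differences between clusters, and smaller ones between libraries within a cluster, may therefore be in part built in. In clusters 0 and 4, where C2cd4b itself, Rasd1 and Fos stand among the 10 leading genes, the WT levels were 477 and 507 CPM and the HFD levels 308 and 304 CPM. The HFD to WT ratios there were 0.645 (0.619 to 0.673) and 0.60 (0.538 to 0.667), closer to 1 than in the class as a whole. In cluster 2, led by the metallothionein gene Mt2 and by interferon-induced genes such as Ifit1 and Cxcl10, both libraries were low. The WT level was 106 CPM (98.5 to 113) in 284 cells and the HFD level 94.3 CPM (71.8 to 122) in 59 cells, a ratio of 0.893 with an interval from 0.674 to 1.16. The WT library thus held β-like cells at the HFD level. Cluster 11, led by Cox6a2, gave 325 and 143 CPM. C2cd4a is among the leading genes of that cluster, at 33.8 CPM (WT) and 17.4 CPM (HFD), a ratio of 0.514 (0.326 to 0.786). Clusters 1 and 3, nearly all HFD, stood at 108 and 106 CPM, and the other HFD-rich clusters 13, 36, 37 and 31 between 71.0 and 122 CPM in HFD. Unnamed clusters 9, 27 and 30, nearest the β markers but with δ or haemoglobin genes leading, gave 356 to 402 CPM in WT and 147 to 165 CPM in HFD. C2cd4a was not lower in HFD in cluster 0, where it stood at 19.6 CPM (WT) and 21.7 CPM (HFD), with a ratio of 1.11 (0.932 to 1.32).

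Within each library, the genes that went with C2cd4b across β-like cells were led by immediate early genes, which respond to signals within minutes and without new protein synthesis. The measure was the Spearman correlation over cells thinned to 10000 UMIs, and the cells of a library share their preparation. In WT, among 7498 genes, the highest were the AP-1 subunit gene Fos (0.53), the zinc-finger factor gene Egr1 (0.46), the antiproliferative gene Btg2 (0.42) and the further AP-1 genes Junb (0.42) and Jun (0.40). Gadd45g, a stress sensor gene, followed at 0.35, then Ier2 (0.35), Fosb (0.35), the MAP kinase phosphatase gene Dusp1 (0.32) and the small GTPase gene Rasd1 (0.31). In HFD, among 7269 genes, 9 of these 10 were again the highest 9, led by Fos (0.32), Egr1 (0.30), Junb (0.28) and Jun (0.27). Gadd45g (0.24), Btg2 (0.22), Ier2 (0.22), Dusp1 (0.21), Fosb (0.18) and Nfkbia (0.18), which encodes the NF-kB inhibitor IκBα, completed the HFD list. For scale, 99% of ranked genes lay below 0.08 in WT and below 0.07 in HFD. Of the 50 highest genes of each library 28 were shared, among them Arc, Npas4, Gem, Irs2, Slc2a2 and Txnip. Of the 17 immediate early genes on the list, 8 were among the 10 highest in each library, and 11 (WT) and 13 (HFD) among the 50 highest. Their median correlation was 0.22 in WT and 0.14 in HFD. Jund, the most abundant member, was among the 50 lowest in WT (-0.21) and among the 50 highest in HFD (0.09), while in WT Fosl2 had -0.02 and Ier3 0.04.

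Within single clusters the correlation with Fos was positive in all 10 combinations of cluster and library with enough cells, from 0.06 in HFD cluster 13 to 0.52 in HFD cluster 0. Other high correlates were less even. Egr1 and Junb were positive in every combination but HFD cluster 13 (-0.01 and -0.07), and Btg2 in every one but HFD cluster 31 (-0.09). Jun fell to 0.003 in HFD cluster 13 and Gadd45g to 0.02 in WT cluster 2. In WT, Fos had 0.26 in cluster 0, 0.27 in cluster 4 and 0.20 in cluster 2. In HFD it had 0.20 in cluster 1 and 0.22 in cluster 3, so the WT clusters and most HFD clusters lay below the value of their whole library and HFD cluster 0 above it. By depth, it was 0.57 in WT cells of 15000 to 30000 UMIs and 0.48 in deeper ones, while in HFD it was 0.32 in cells of 10000 to 15000 UMIs, 0.33 in those of 15000 to 30000 and 0.17 in the 108 deeper ones. The heat shock genes, which respond to damaged protein, had a median correlation with C2cd4b of 0.06 in WT and 0.07 in HFD. Of the 9 on the list, 3 were among the 50 highest in WT and 4 in HFD. Hspa8 (0.18 in WT, 0.12 in HFD) and Dnajb1 (0.12 and 0.11) were so in both libraries, Hsph1 (0.10) in WT, and Hspa1a and Hspa1b (both 0.11) in HFD.

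At the other end the libraries had little in common, with 4 of the 50 lowest genes shared: Chac1, Dnajb9, Herpud1 and Tnfrsf12a, the first 3 being genes of the unfolded protein or integrated stress response. The lowest in WT were the keratin gene Krt8 (-0.25), the actin gene Actg1 (-0.25), Mt1 (-0.25), the lamin gene Lmna (-0.24) and Mt2 (-0.24). In HFD these 5 lay between -0.01 and 0.10. The lowest in HFD were the endoplasmic reticulum stress gene Manf (-0.10), Nucb2 (-0.10), the receptor gene Tnfrsf12a (-0.09), the protease gene Pappa2 (-0.09) and Dapl1 (-0.09).

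**Figure D4:**
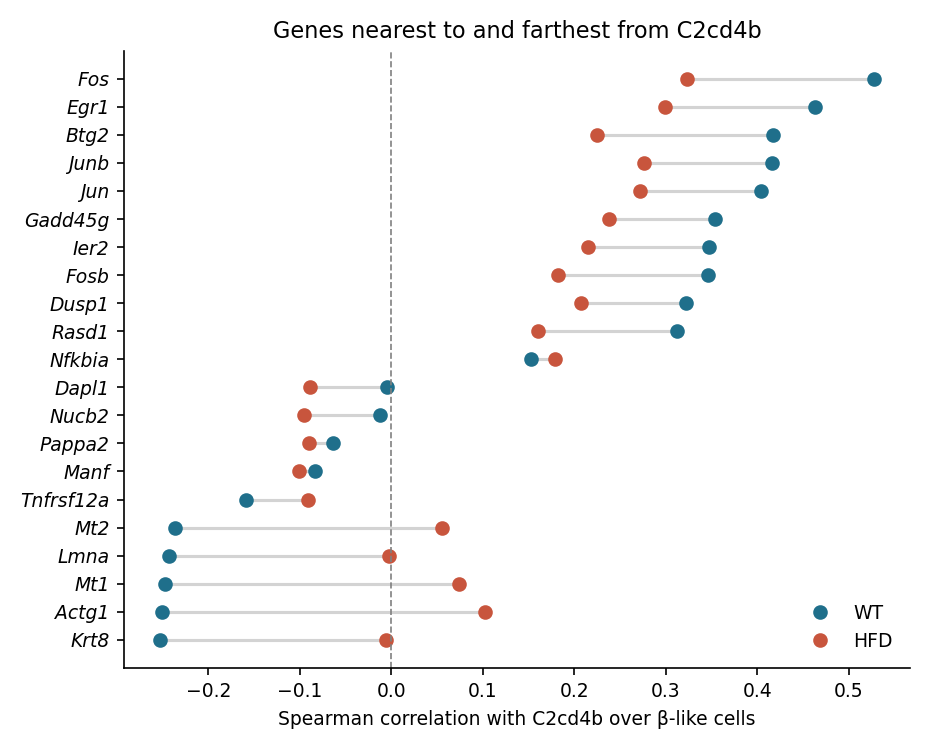
Spearman correlation with C2cd4b over β-like cells thinned to 10000 UMIs (1483 WT, 3106 HFD) for the genes ranked among the 10 highest or 5 lowest in either library. Fos is highest in both, at 0.53 and 0.32; the genes lowest in WT lie near or above 0 in HFD.

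The immediate early genes themselves were for the most part lower in the HFD library too. Of the 17 on the list, 8 were at least 2-fold lower in HFD β-like cells and none was 2-fold higher, against 0.902% and 1.04% of all genes. The median log2 ratio was -0.88 against -0.0057 over all genes. Fos had 827 CPM (WT) and 162 CPM (HFD), a log2 ratio of -2.35. Dusp1 had 87.5 and 20.1 CPM (-2.13) and the mRNA decay factor gene Zfp36 27.3 and 7.73 CPM (-1.82). Btg2 (-1.69), Egr1 (-1.65), Junb (-1.42), the orphan receptor gene Nr4a1 (-1.18) and Ier2 (-1.10) were the others. Not all of the list was lower: Jund had a log2 ratio of 0.24 (0.22 to 0.26) and Klf6 one of 0.13 (0.03 to 0.22), and Fosb, at -0.36, was lower by less than 2-fold. Nor was the difference limited to β-like cells. Fos had an HFD to WT ratio of 0.169 (0.136 to 0.209) in α-like, 0.305 (0.260 to 0.357) in δ-like, 0.109 (0.080 to 0.145) in endothelial-like and 0.354 (0.277 to 0.445) in fibroblast-like cells. The 7 early genes looked at by class (Fos, Egr1, Junb, Jun, Btg2, Ier2, Dusp1) were chosen after their values were seen. All 7 were lower in HFD β-like cells, and Jund, Klf6 and Fosb were not looked at by class. All 7 had intervals below 1 in α-like, δ-like, ductal-like and macrophage-like cells. In endothelial-like cells 6 of the 7 did and Dusp1 was higher in HFD (1.19, interval above 1), and in fibroblast-like and γ-like cells 5 and 4 did. Some of these classes held different clusters in each library. Of the endothelial-like cells, cluster 8 held 87 WT and 9 HFD cells, and cluster 22 held 20 and 67. Of the ductal-like cells, cluster 16 held 46 WT and 2 HFD cells, and cluster 44 held 11 and 30. The α-like cluster 41 held 0 WT and 67 HFD cells. The part of this in the ratios by class was not tested. The part of the early genes in the C2cd4b difference was not tested.

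C2cd4b was then compared between β-like cells of the same Fos level, a comparison chosen after the correlations had been seen. In cells with 0 Fos UMIs per 10000, the mean C2cd4b count was 0.802 (0.691 to 0.926) in 232 WT cells and 0.823 (0.778 to 0.870) in 1514 HFD cells, a ratio of 1.03 (0.879 to 1.20). With 1 to 2 Fos UMIs the means were 2.17 and 1.10, a ratio of 0.505 (0.439 to 0.584), and with 3 to 5 they were 3.45 and 1.98, a ratio of 0.573 (0.515 to 0.639). In both libraries C2cd4b was higher in each higher Fos band. With 6 to 10 Fos UMIs the means were 4.66 and 3.41, a ratio of 0.732 (0.664 to 0.805). With 11 or more they were 5.83 (5.62 to 6.04) in 503 WT cells and 6.64 (5.97 to 7.35) in 55 HFD cells, a ratio of 1.14 (1.02 to 1.27). HFD was thus lower in the middle 3 bands, not separated from WT in the lowest and higher in the highest. The bands held very different shares of cells: 15.6% of WT but 48.7% of HFD cells had no Fos UMI, and 33.9% and 1.77% had 11 or more. Fos was picked as the highest correlate of C2cd4b on these cells, so a smaller difference within its bands is in part built in, and the ratios are a description only.

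Cells were also grouped by the summed UMIs of all 17 early genes. The C2cd4b ratios were 0.826 (0.604 to 1.15) at 0 to 10 summed UMIs, 0.683 (0.602 to 0.778) at 11 to 20, 0.430 (0.388 to 0.477) at 21 to 30, 0.471 (0.432 to 0.514) at 31 to 45 and 0.795 (0.735 to 0.859) at 46 or more. The interval lay below 1 in 4 of the 5 bands. Fos and the early gene sum are themselves counted with error, so cells of a band need not share a true level.

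For C2cd4a no Fos band had an interval below 1. The mean count per 10000 UMIs in cells without Fos was 0.039 (0.018 to 0.074) in WT and 0.088 (0.074 to 0.104) in HFD, a ratio of 2.26 (1.16 to 5.06) from 9 and 133 UMIs. In the other 4 bands the ratio lay between 0.772 and 1.71, and each of those intervals included 1. By the early gene sum, C2cd4a gave 2.17 (1.15 to 4.61) at 11 to 20 summed UMIs, 0.701 (0.496 to 0.983) at 31 to 45 summed UMIs and 1.61 (1.11 to 2.30) at 46 or more. At 21 to 30 it gave 0.817 (0.570 to 1.19). At 0 to 10 it had 0 WT and 24 HFD UMIs, with an interval from 0.760 upward, so the intervals of both these bands include 1.

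**Figure D5:**
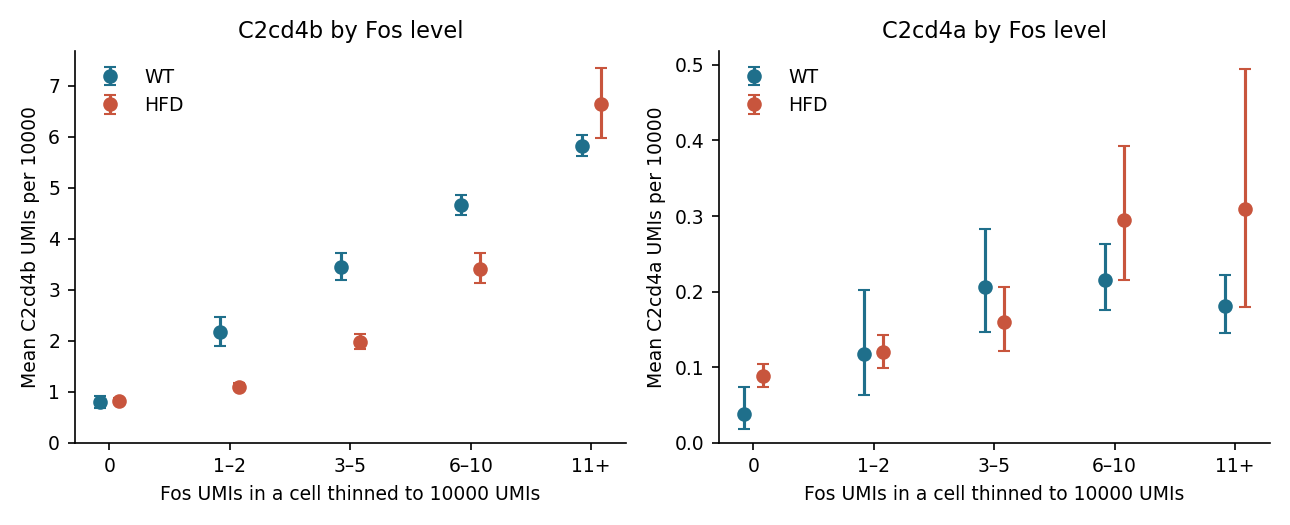
Mean C2cd4b (left) and C2cd4a (right) UMIs per 10000 in β-like cells grouped by Fos UMIs after thinning each cell to 10000 UMIs, with exact 95% counting intervals, for the WT and HFD libraries. C2cd4b runs from 0.802 to 5.83 in WT and from 0.823 to 6.64 in HFD, and the libraries lie apart in the middle 3 bands.

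The rest of the locus and family showed no difference of the size seen for C2cd4b. Vps13c had a log2 HFD to WT ratio of -0.24 (-0.38 to -0.09), C2cd4c of -0.02 (-0.26 to 0.23), C2cd4d of -0.05 (-0.52 to 0.43), the talin gene Tln2 of -0.18 (-0.47 to 0.11) and the nuclear receptor gene Rora of 0.14 (0.05 to 0.24). Their median was -0.05, and 0 of 5 passed 2-fold. The Vps13c level in β-like cells was 14.6 CPM (WT) and 12.4 CPM (HFD), and WT endothelial-like cells, nearly free of C2cd4b, held 21.4 CPM (11.4 to 36.5; 13 UMIs).

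Among genes that respond to cAMP and calcium, 3 of the 10 with at least 100 UMIs were at least 2-fold lower in HFD β-like cells and 0 higher, against 0.902% lower and 1.04% higher of all genes, with a median log2 ratio of -0.82. They were the kinase gene Sik1 (-1.79), the activity-dependent factor gene Npas4 (-1.51) and the GTP-binding protein gene Gem (-1.26). The most abundant of the list, the prohormone convertase gene Pcsk1, had 0.08, Irs2 had -0.97 and Pde10a -0.77. Among NF-kB and inflammatory response genes 4 of 14 were at least 2-fold lower and 0 higher, against the same 0.902% and 1.04% of all genes, with a median of -0.44: the chemokine gene Cxcl10 (-1.99), Icam1 (-1.67), the cytokine signalling inhibitor gene Socs3 (-1.60) and Tnfaip3 (-1.39). Nfkbia had -0.76, the interleukin-1 receptor gene Il1r1 -0.42 and Sod2 0.22. Both lists hold genes that also ranked near C2cd4b across cells.

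None of the other lists held a gene past 2-fold. The 13 β-cell transcription factor and FoxO genes had a median log2 ratio of -0.41, with Mafa at -0.92, Nkx6-1 at -0.50 and Pax6 at -0.19. Foxo1, whose product has been linked to C2cd4a in β cells, had -0.57 (-0.68 to -0.45) and a correlation with C2cd4b of -0.02 in WT and 0.03 in HFD. The 8 glucose sensing genes had a median of -0.47, with the glucose transporter gene Slc2a2 at -0.82, Abcc8 at -0.09 and G6pc2 at 0.13. The 15 C2-domain genes of regulated exocytosis, which share the domain for which the pair is named, had a median of -0.11, with Syt13 at -0.02, Syt4 at 0.12 and Sytl4 at -0.31. The 9 heat shock genes had a median of 0.28, with Hspa8 at 0.28, Hsp90aa1 at 0.16 and Hspe1 at 0.34. Only 2 of 16 genes normally kept low in β cells had enough UMIs, Zyx at 0.17 and Oat at -0.09.

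Across cell classes, over 12 points (β-like, α-like, δ-like, endothelial-like, ductal-like and macrophage-like sums in each library), the gene with the pattern most like C2cd4b among 10096 was Nkx2-2, a transcription factor gene of endocrine cells, with a Pearson correlation of log2(CPM + 1) of 0.96. Tmem42, Lyplal1 and Zfp516 followed at 0.95 to 0.96, then Ddc, Fbxl16, H2-Q2, Camk2n2, Slc16a12 and Rims2 at 0.93 to 0.95. C2cd4a had 0.63 with C2cd4b. These genes did not all share the difference between libraries: the log2 HFD to WT ratio in β-like cells was -0.54 for Nkx2-2, 0.01 for Tmem42 and 0.25 for Ddc, against -1.59 for C2cd4b. The points of a library share its depth and preparation.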

How the data were processed

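The deposited values were whole-number UMI counts per gene and barcode, which the authors made with Cell Ranger (v3.0.2) on mm10, per the labels and the study's methods. The authors' later filters had not been applied to them. Barcodes with at least 500 genes and at most 20% mitochondrial UMIs were kept, with no UMI maximum. Scrublet's automatic threshold called 1 WT and 0 HFD barcodes and was judged not to have worked, so the highest scores were left out (121 WT and 641 HFD barcodes, 0.8% per 1000 barcodes). Cells were clustered with scanpy (v1.11.5) on 2000 variable genes, 50 components and 15 neighbours at resolution 1, without C2cd4a, C2cd4b, Ins1, Ins2, Gcg, Sst, Ppy and Cck. After a first look at the clusters, haemoglobin genes were left out as well and every cluster of at least 60 cells that was not plainly β was split again at resolution 0.5. A cluster was named when at least 3 markers of its best class were detected and no other class had more markers among its 10 leading genes, unless its cells were far shallower than their library. Levels (CPM) are UMIs summed over a class and scaled to a common total, with exact Poisson intervals, and ratios have exact conditional intervals. Each group is 1 library, so no test was made. Cells were thinned to 2000 UMIs for shares, and to 10000 for correlations, over genes with a UMI in at least 5% of cells. Ratios are listed for genes whose UMIs in WT and HFD came to 100 or more. The ratio and correlation steps alone were tested on simulated data, in which the counts for the ratios varied by counting error only. Named were the members and their neighbours, the 10 highest and 5 lowest correlated genes per library without mitochondrial, ribosomal and model genes, the 10 nearest in class pattern, and from each list the 3 with most UMIs and any past 2-fold. Genes outside this rule (7 early genes by class, Foxo1, Klf6, Fosl2, Ier3, Dnajb1, Hsph1, Hspa1a and Hspa1b, the shared genes of the correlation lists, and genes that lead clusters) were chosen after their values were seen. The members and lists were chosen with earlier results of these data known. Gene positions are from GENCODE on GRCm38, and promoters from RefSeq, which held both members.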

Additional observations from a re-analysis of the deposited data

How the results depend on the processing

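No paired analysis was possible because each group is 1 library and the labels carry no replicate numbers, and for the same reason no replicate could be left out. The C2cd4b ratio in β-like cells (0.331) stayed below 1 under all 12 alternatives listed at the outset, within its counting interval under 7. It was 0.294 on totals without Ins1, Ins2 and mitochondrial genes, 0.350 as a mean over cells, 0.358 thinned to 5000 UMIs and 0.364 at resolution 2. Without the 4 clusters in which the HFD library held over 95% of cells it was 0.511. The C2cd4a ratio (0.643) was 0.734 at no more than 15000 UMIs per cell, with an interval that includes 1. It was 0.570 on totals without Ins1, Ins2 and mitochondrial genes and 0.875 without the same 4 HFD clusters. Of the alternatives added after seeing the data, adding the unnamed clusters nearest β moved neither ratio (0.333 and 0.656) and the others moved both. Within clusters 0 and 4, C2cd4b was at 0.624 and C2cd4a at 1.05, past 1. With WT or HFD shares of Fos bands, C2cd4b was at 0.911 or 0.695 and C2cd4a at 1.41 or 1.26. These carry no interval, Fos had been picked for its correlation with C2cd4b, and WT shares put 33.9% of the weight on 55 HFD cells. With those of early gene bands, whose sum was made up differently in each library, C2cd4b was at 0.645 or 0.592 and C2cd4a at 1.12 or 1.26. The direction for C2cd4a therefore depends on the cells compared, and the cause was not tested. The 28 shared genes of the 50 highest were 24 to 30 under 3 alternatives, and 9 or 10 of the 10 highest of each library were kept. The Fos correlation ran from 0.44 to 0.59 in WT and from 0.29 to 0.40 in HFD. Genes past 2-fold numbered 100 lower and 115 higher of 11084 (0.902% and 1.04%). With a minimum of 10 UMIs they numbered 494 and 410 of 14009 (3.53% and 2.93%). At no more than 15000 UMIs per cell they numbered 271 and 225 of 9111 (2.97% and 2.47%). The cause of these changes was not tested.

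C2cd4a, with 959 and 762 UMIs in β-like cells, was too scarce to follow outside them, and γ-like and ductal-like cells gave wide intervals for C2cd4b. Intervals cover counting error alone. With 1 library per group, the spread between mice and preparations is unknown.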
